A study of Homo sapiens with 104 samples.

Results

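The sterol and fatty acid synthesis genes are 31 genes that were named as a list: 5 regulators, 18 genes of the sterol arm, which runs to cholesterol, and 8 genes of the fatty acid arm. They were measured by array probe sets annotated with the symbol of 1 member alone, which 28 of the 31 have, among 19775 genes with such a probe set in all. All 28 passed the filter on low values that left 13842 genes tested: the 5 regulators, 16 of the sterol arm and 7 of the fatty acid arm. The probe sets of CYP51A1 and FADS1 carried a second symbol and were not used, and FDFT1 matched no probe set of its own. The study compared 26 human lymphoblastoid cell lines, which are B cells kept growing in culture, after exposure to MNNG and untreated. MNNG (N-methyl-N'-nitro-N-nitrosoguanidine) is a chemical that methylates DNA. The lines were TK6, an established lymphoblastoid line, MT1, an alkylation-resistant line derived from TK6 and known to lack mismatch repair, and a panel of 24 numbered lines, all grown to mid log phase, with 2 arrays for each line and condition. The labels used here state no dose or exposure time, and none says that the 2 arrays came from separate cultures, so p-values that rest on them may measure technical spread alone.

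Cells make cholesterol and unsaturated fatty acids from acetyl-CoA, and the transcription factors SREBP1 (gene SREBF1) and SREBP2 (gene SREBF2) switch on most enzymes of both routes. SCAP carries the SREBPs from the endoplasmic reticulum to the Golgi, where they are cut and activated, and INSIG1 holds SCAP back when sterols are plentiful. Dividing lymphocytes use both routes to build membranes.

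Of the 52 MNNG and 52 untreated arrays, 22 MNNG arrays (21 of the panel and 1 of MT1) were left out because a pair of probe sets for a spiked-in control transcript, cre, lay between -6.45 and -5.19 log2 units apart, against 0.0821 to 0.83 in the 82 arrays kept. That left 19 panel lines with an MNNG array, 2 MNNG arrays of TK6 and 1 of MT1. Of these panel lines 11 kept 1 MNNG array, numbered 2 in lines 4 and 17 and numbered 1 in the others. It was set against the mean of both untreated arrays, so replicate number is partly confounded with treatment in the panel. With no array left out, fewer members passed in TK6, where 2 fell and 0 rose, against 0.983% and 2.36% of all genes, and 0 passed for the difference between TK6 and MT1 in response, against 0.238% of all genes lower in TK6 and 0.686% higher. The 35 duplicate pairs kept correlated between 0.959 and 0.997. Of 8 B-cell markers, 7 were measured, with a median percentile of 97.3 among all genes, against 28.9 for T and NK cell markers, 35.9 for myeloid markers and 24.9 for fibroblast, epithelial and liver markers. The summed log2 levels of the B-cell markers were 67.7 to 72.9 in MNNG-treated and 68.3 to 74.0 in untreated panel lines. Single markers did change: at an adjusted p below 0.05 (limma) 3 of the 7 fell and 0 rose in the panel, against 13.8% and 28.7% of all genes. In TK6 3 fell and 3 rose, against 19.5% and 21.6%. In untreated MT1 4 were lower and 0 higher than in untreated TK6, against 11.7% and 13.6%, with a median difference of -1.12. A 3' to 5' difference of beta-actin probe sets, which is read as a sign of RNA or labelling quality, had a median of 0.284 log2 units in the 27 MNNG arrays of the panel and 0.0502 in the 48 untreated arrays. It was higher after MNNG in 18 of 19 lines. The same measure for GAPDH had medians of 0.0141 in MNNG arrays and -0.0233 in untreated arrays. In these bulk samples fewer cells of a type and less RNA per cell cannot be told apart.

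The promoters of 25 members were in the RefSeq table (GRCh38.p14), and the 250 bases before the start of each gene were searched on both strands. A sterol regulatory element, TCACNCCAC, the classic SREBP site, was found in 1 of the 25 (SREBF2), against 1.09% of 27305 genes. The CCAAT box, the site of the SREBP partner NF-Y, was found in 19 of the 25 (76%), against 37% of all genes. The GC box GGGCGG, the site of the partner Sp1, was found in 24 (96%), against 46.2%, and the E-box CACGTG in 3 (12%), against 7.73%. Of the CCAAT boxes, those in NSDHL overlap each other in 1 place. These letters are a description of the sequence and were not tested as sites. The stretches below show 5 genes that fell in TK6, the panel or both, followed by TM7SF2, NSDHL and HSD17B7, which rose in at least 1 of these comparisons. Each runs 5' to 3' on the strand of its gene, with capitals for the sterol regulatory element of SREBF2 and for CCAAT or its complement ATTGG.
SREBF2, chr22:41832927-41833016, plus strand: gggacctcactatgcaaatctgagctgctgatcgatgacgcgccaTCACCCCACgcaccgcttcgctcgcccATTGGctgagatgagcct
INSIG1, chr7:155297663-155297752, plus strand: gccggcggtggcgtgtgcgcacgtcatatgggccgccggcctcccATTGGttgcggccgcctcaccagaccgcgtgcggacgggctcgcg
HMGCS1, chr5:43313478-43313567, minus strand: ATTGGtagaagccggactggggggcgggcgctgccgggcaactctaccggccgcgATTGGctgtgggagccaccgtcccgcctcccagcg
MVD, chr16:88663161-88663250, minus strand: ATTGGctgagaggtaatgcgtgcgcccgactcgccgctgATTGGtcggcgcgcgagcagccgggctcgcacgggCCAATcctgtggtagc
SCD, chr10:100347002-100347091, plus strand: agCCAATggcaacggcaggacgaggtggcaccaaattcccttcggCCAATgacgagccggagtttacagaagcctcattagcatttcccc
TM7SF2, chr11:65111753-65111842, plus strand: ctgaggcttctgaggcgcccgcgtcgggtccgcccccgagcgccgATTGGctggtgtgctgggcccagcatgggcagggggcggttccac
NSDHL, chrX:152830925-152831014, plus strand: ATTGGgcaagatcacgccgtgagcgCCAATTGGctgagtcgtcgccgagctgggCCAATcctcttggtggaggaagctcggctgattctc
HSD17B7, chr1:162790605-162790694, plus strand: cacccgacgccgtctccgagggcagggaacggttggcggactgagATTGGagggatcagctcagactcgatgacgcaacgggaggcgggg
Apart from SREBF2, the genes shown were picked among those with a CCAAT box, so its presence in genes that fell and rose was fixed. No CCAAT box was found for FADS2, ELOVL6, SREBF1, SCAP and LPIN1, which fell in TK6, or for PMVK, which rose in the panel.

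Across the 19 panel lines, 3 of 5 regulators, 7 of 16 sterol genes and 4 of 7 fatty acid genes fell after MNNG, and 2 sterol genes rose. SCD, FADS2 and FASN, which make and desaturate fatty acids, had the lowest mean changes. For FADS2 and FASN that place depended on the arrays numbered 2, without which they changed by -0.22 and -0.14, against -0.33 for INSIG1. Of the 28 members, 14 fell and 2 rose at an adjusted p below 0.05 (limma, Benjamini-Hochberg over 13842 genes), against 13.8% of all genes that fell and 28.7% that rose. The median change was -0.28 log2 units over the 5 regulators, -0.08 over the 16 sterol genes and -0.20 over the 7 fatty acid genes, against 0.04 over all genes tested. The beta-actin difference moved with these changes: across the 19 lines it correlated with the median change of the fatty acid arm at r = -0.66 and of the sterol arm at r = -0.33, a description over lines that share their arrays. With that difference as a covariate, 0 members fell and 1 rose, and 2.77% of all genes were called, against 42.6% without it. Its part in the panel changes was not tested. With arrays centred on their medians, 18 members fell and 1 rose, against 16.9% and 6.85% of all genes, and with the values as deposited 10 fell and 1 rose, against 6.93% and 29.6%.

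Among the regulators, SREBF2 ranged from 8.15 through a median of 8.52 to 9.1 log2 units in the 19 MNNG-treated lines, against 8.38, 8.72 and 9.44 in the same lines untreated. It was lower after MNNG in 19 of 19 lines, although the ranges of the groups overlap, and the change was -0.37 ± 0.05 (SE, 19 lines, adjusted p = 8.71e-06). INSIG1 had 8.95, 9.97 and 10.6 as lowest, median and highest level with MNNG, against 9.54, 10.2 and 10.8 untreated. Its change was -0.28 ± 0.05 (adjusted p = 7.16e-05), and 17 lines were lower. SREBF1 changed by -0.28 ± 0.08 (adjusted p = 0.00747), but the lines were divided, with 14 lower and 5 higher. SCAP (-0.07 ± 0.03) and STARD4 (-0.09 ± 0.05), which carries cholesterol between membranes, did not pass the test.

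In the fatty acid arm, SCD, the desaturase that turns saturated into monounsaturated fatty acids, had 9.15, 9.83 and 11.1 as lowest, median and highest level in MNNG-treated lines, against 10.0, 10.7 and 11.5 untreated. All 19 lines were lower after MNNG, with changes from -1.35 to -0.14 log2 units, and the ranges still overlap. The mean change of SCD was -0.65 ± 0.07 (1.57-fold lower, adjusted p = 4.45e-07). FADS2, the first desaturase on the way to long polyunsaturated fatty acids, had 8.36, 8.73 and 9.82 with MNNG, against 8.83, 9.29 and 10.4 untreated. It was lower in 17 of 19 lines, by a mean of -0.56 ± 0.08 (adjusted p = 4.69e-06). FASN, the fatty acid synthase, had 6.88, 7.49 and 8.19 with MNNG, against 7.44, 7.88 and 8.53 untreated, and was lower in 19 of 19 lines (-0.41 ± 0.05, adjusted p = 1.75e-06). Without the arrays numbered 2, FASN did not pass (-0.14, adjusted p = 0.12) and FADS2 changed by -0.22 (adjusted p = 0.0474). With the replicate number as a block, FASN changed by -0.24 and FADS2 by -0.36, and both passed. Their dimmer probe sets changed by 0.02 for FASN and -0.02 for FADS2 and did not pass. These had low mean levels, 5.58 for FASN and 6.17 for FADS2, against 7.76 and 9.27 for the brightest. ACLY, which cuts citrate to acetyl-CoA in the cytosol, fell by a smaller amount (-0.20 ± 0.03, 18 lines lower). The acetyl-CoA carboxylase ACACA (-0.07 ± 0.03), the elongase ELOVL6 (-0.09 ± 0.04) and the phosphatidate phosphatase LPIN1 (0.02 ± 0.04) did not pass the test.

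The sterol arm was mixed. From acetoacetyl-CoA to farnesyl pyrophosphate, 2 of 7 genes fell: MVD, the decarboxylase that makes isopentenyl pyrophosphate (-0.29 ± 0.05), and the isomerase IDI1 (-0.15 ± 0.04). PMVK, the phosphomevalonate kinase, rose by 0.09 ± 0.02 in 16 of 19 lines, a change that took the other sign (-0.048) when arrays were centred on their medians instead of quantile normalised. ACAT2, HMGCS1, MVK and FDPS, which stand before or after these steps, lay between -0.082 and 0.012 and did not pass. The dimmer probe set of HMGCS1 (-0.94 ± 0.07) and 1 of MVK (-0.27 ± 0.07) fell, while the other dimmer ones of MVK did not pass. Of 9 genes between squalene and cholesterol, 5 fell. Over all genes 13.8% fell and 28.7% rose in the panel, and the 2 parts of the route were not tested against each other. The squalene epoxidase SQLE had 9.27, 9.54 and 10.0 as lowest, median and highest level with MNNG, against 9.43, 9.87 and 10.3 untreated, and was lower in 19 of 19 lines (-0.25 ± 0.04, adjusted p = 6.01e-06). LSS, which closes the ring to lanosterol, had 8.19, 8.53 and 9.64 with MNNG, against 8.38, 8.97 and 10.1 untreated (-0.28 ± 0.04, 18 lines lower, adjusted p = 3.47e-06). Smaller falls were found for the last enzyme of the route, DHCR7 (-0.19 ± 0.04), the methyl oxidase MSMO1 (-0.13 ± 0.03) and the ketoreductase HSD17B7 (-0.08 ± 0.03). The other probe set of DHCR7, nearly as bright, fell by more (-0.53 ± 0.05).

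NSDHL, the dehydrogenase that works between MSMO1 and HSD17B7 in removing methyl groups from lanosterol, went the other way. Its lowest, median and highest levels were 7.34, 7.59 and 7.8 in MNNG-treated lines, against 7.04, 7.3 and 7.67 untreated. It rose by 0.28 ± 0.04 and was higher in 18 of 19 lines (adjusted p = 3.66e-06). EBP, TM7SF2 and SC5D, which act after lanosterol on the ring, lay between 0.0022 and 0.074 and did not pass. Without the arrays numbered 1 of each line, 6 members fell and 0 rose in the panel, against 2.41% and 6.18% of all genes. The calls of SREBF1, SREBF2, PMVK, MVD, IDI1, SQLE (-0.15), MSMO1 (-0.076), NSDHL (0.19), HSD17B7 and DHCR7 were lost there. Without the arrays numbered 2, 14 fell and 3 rose, against 11.0% and 21.7% of all genes, with the calls of HSD17B7 (-0.048) and FASN lost and SREBF2 at -0.23. A change below 0 in at least 16 of 19 lines was found for 10 members, against 9.15% of all genes, and a change above 0 in as many lines for 2 (PMVK and NSDHL), against 19.2%.

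**Figure D1:**
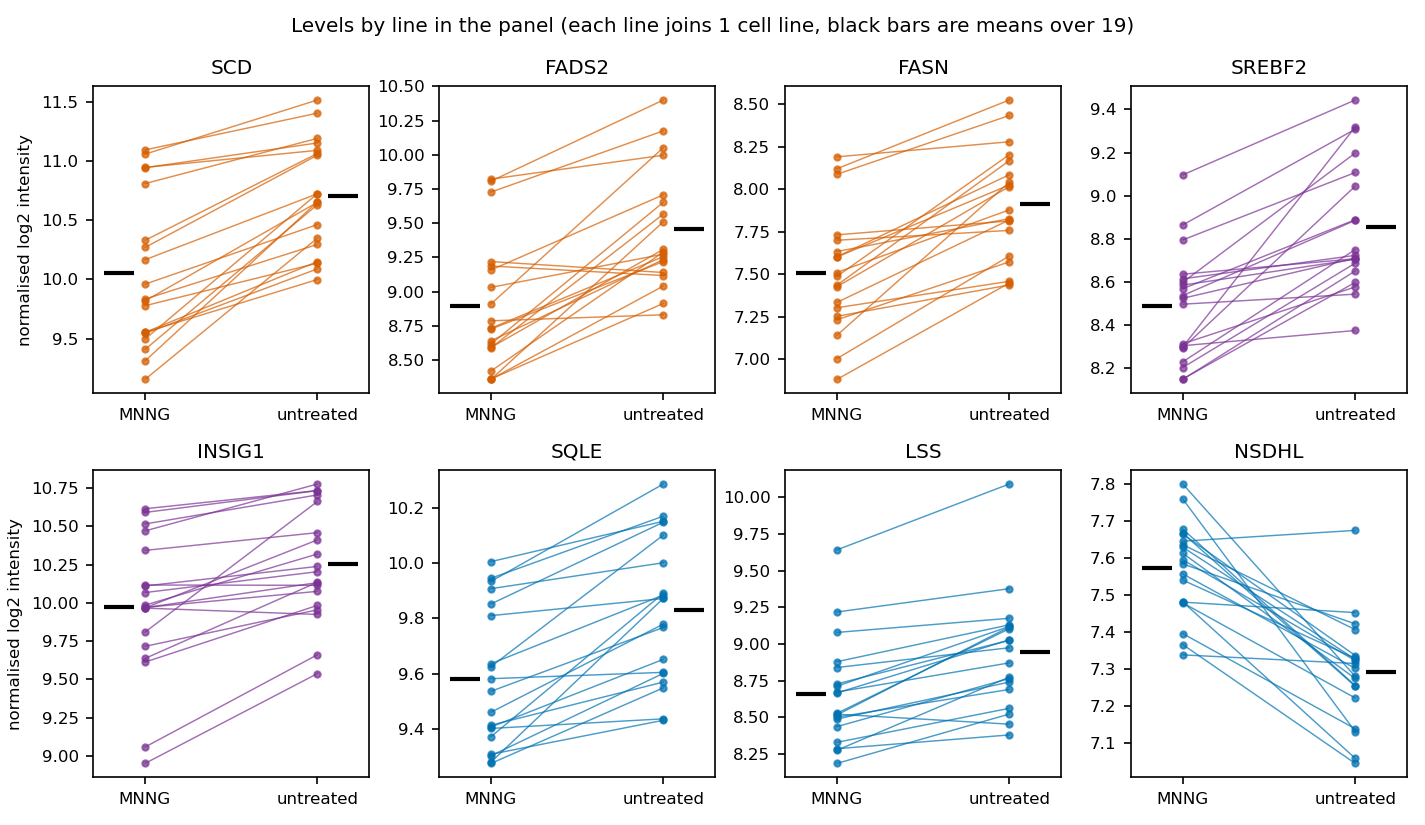
Normalised log2 intensity (vertical axis, a separate scale for each gene) of 8 members in MNNG-treated and untreated cells of the panel. Each coloured line joins the levels of 1 of 19 cell lines and black bars are means. SCD, FASN, SREBF2 and SQLE are lower after MNNG in all 19 lines, while NSDHL is higher in 18.

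Taken line by line, the median change of the sterol arm ranged from -0.31 to 0.17 with a median over lines of -0.04, and that of the fatty acid arm from -0.48 to -0.02 with a median of -0.21. The fatty acid arm was below 0 in 19 of 19 lines and the sterol arm in 12. The sterol arm stood above the fatty acid arm in 16 of 19 lines, by a median of 0.18. From the fitted changes of the panel, the sterol median minus the fatty acid median was 0.11. It was -0.016 with the dimmest probe set of each gene, where the fatty acid median was -0.039. Several dimmest probe sets had mean levels near the lowest value of the scale, 5, where changes are understated. They were at 5.58 for FASN, 5.87 for ELOVL6, 5.61 for LSS, 5.56 for SC5D and 5.72 for MVK. Others were brighter, such as those of SCD (7.12) and ACLY (8.33). The value of -0.016 therefore cannot decide whether the arms differ. The arm values are medians over unequal numbers of genes and no test was made over the lists. Line 9 had the lowest change of all 19 lines in 8 members (ACAT2, DHCR7, HMGCS1, HSD17B7, INSIG1, MSMO1, SC5D and SCD), against 2.02% of all genes, a count chosen after the values were seen. Differences between lines in the size of the response passed limma's F test for 4 members, against 6.13% of all genes. They were SCD (adjusted p = 1.77e-06), ACAT2 (adjusted p = 0.000596), FDPS (adjusted p = 0.0018) and SREBF1 (adjusted p = 0.00516). ACAT2 ranged from -0.37 to 0.31 over the lines and SREBF1 from -0.89 to 0.39, so that both had a mean that hides lines of either sign.

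**Figure D2:**
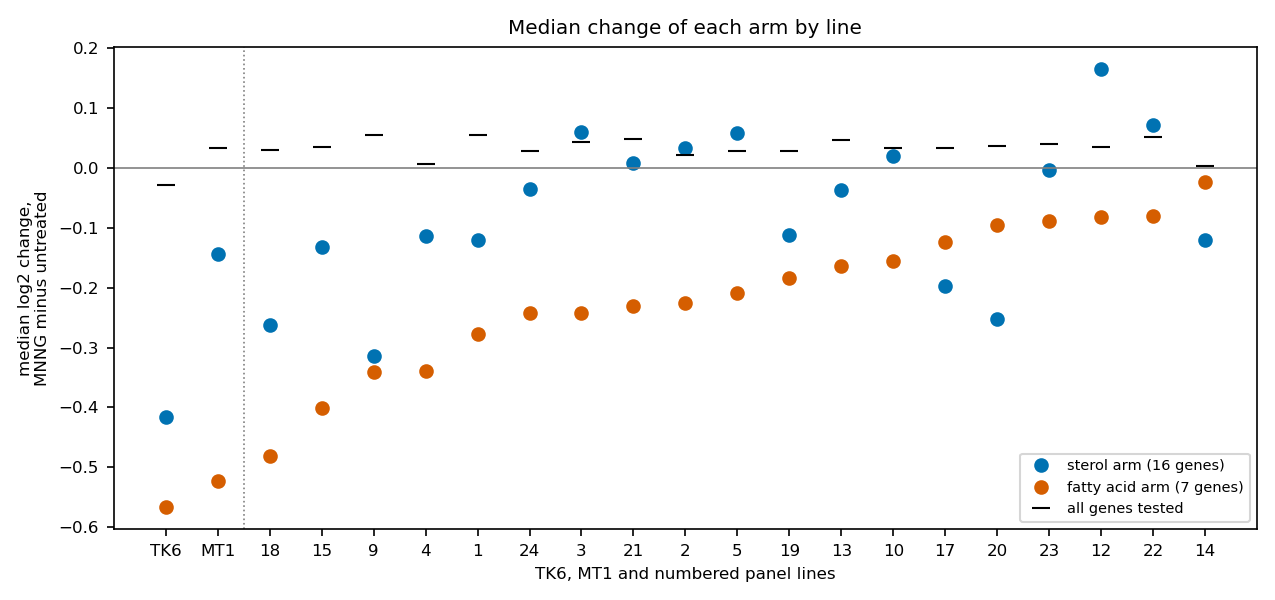
Median log2 change (MNNG minus untreated, vertical axis) of the 16 sterol genes, the 7 fatty acid genes and all 13842 genes tested in TK6, MT1 and the 19 panel lines, ordered by the fatty acid arm. The fatty acid arm lies below 0 in every line drawn, and the sterol arm lies below it in 3 panel lines.

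In TK6 most members of both arms were lower after MNNG, and SCD, FADS2, SQLE, ELOVL6, HMGCS1 and INSIG1 fell by more than 1 log2 unit. TM7SF2, HSD17B7 and ACAT2 of the sterol arm rose. Of the 28 members, 18 fell and 3 rose, against 19.5% and 21.6% of all genes (21 called in either direction, against 41.2%). The median change was -0.59 over the regulators, -0.42 over the sterol arm and -0.57 over the fatty acid arm, against -0.03 over all genes. The 2 MNNG arrays lay below both untreated arrays for 20 members, against 35.8% of all genes, and above both for 3, against 32.2%. The change in TK6 was below that of all 19 panel lines for 15 members, against 23.7% of all genes, and above all of them for 2 (TM7SF2 and HSD17B7), against 20.2%. The beta-actin difference had medians of 0.389 in the MNNG arrays and 0.261 in the untreated arrays of TK6, and its part was not tested.

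In the fatty acid arm of TK6, SCD had 9.93 and 9.8 log2 units in the MNNG arrays, against 11.9 and 12.1 in the untreated arrays. The pairs lie far apart, and the change was -2.13 ± 0.11 (4.38-fold lower, adjusted p = 3.15e-19). ELOVL6, which adds the carbons that take palmitate to stearate, had 6.94 and 7.3 with MNNG, against 8.31 and 8.24 untreated (-1.15 ± 0.15, adjusted p = 2.5e-08). FADS2 had 8.81 and 8.61 with MNNG, against 9.79 and 10.7 untreated, where the duplicates stood wide apart (-1.53 ± 0.46, adjusted p = 0.00597). FASN had 7.33 and 6.77 with MNNG, against 7.06 and 7.98 untreated, so the groups overlap and the change of -0.47 ± 0.43 did not pass. ACLY (-0.57 ± 0.09), ACACA (-0.53 ± 0.13) and LPIN1 (-0.40 ± 0.14) fell. Without replicate 1, ACACA (-0.45) and LPIN1 (-0.17) did not pass, and without replicate 2 FADS2 (-0.98) did not.

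In the sterol arm of TK6, SQLE had 8.76 and 8.69 with MNNG, against 10.1 and 10.4 untreated, a change of -1.51 ± 0.17 (2.85-fold lower, adjusted p = 1.38e-09). HMGCS1, the synthase that makes HMG-CoA, had 8.84 and 8.9 with MNNG, against 9.91 and 9.9 untreated (-1.04 ± 0.12, adjusted p = 1.89e-09). Neither gene overlapped between conditions. MVD (-0.93 ± 0.17), the isomerase EBP (-0.84 ± 0.10), MSMO1 (-0.83 ± 0.10), FDPS, which makes farnesyl pyrophosphate (-0.82 ± 0.07), IDI1 (-0.56 ± 0.10), DHCR7 (-0.44 ± 0.12) and LSS (-0.39 ± 0.14) fell as well. Among the regulators, INSIG1 had 9.08 and 9.16 with MNNG, against 10.3 and 9.96 untreated (-1.01 ± 0.17, adjusted p = 3.54e-06). SREBF1 (-0.87 ± 0.17) and SCAP (-0.59 ± 0.22) fell, while SREBF2 (-0.56 ± 0.25, adjusted p = 0.0721) did not pass with its brightest probe set. The dimmer probe sets of SREBF2 fell by more (-1.17 ± 0.29 and -0.83 ± 0.17) and passed. DHCR7 did not pass without replicate 1 (-0.20), nor LSS (-0.24) and SCAP (-0.27) without replicate 2.

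The 3 members that rose in TK6 are all in the sterol arm. TM7SF2, a sterol reductase of the steps after lanosterol, had 8.41 and 8.06 with MNNG, against 7.13 and 7.34 untreated (1.00 ± 0.22, 2.00-fold, adjusted p = 0.00018). HSD17B7 had 9.59 and 9.63 with MNNG, against 9.01 and 9.18 untreated (0.52 ± 0.08, adjusted p = 1.03e-06). ACAT2, which makes acetoacetyl-CoA, had 9.88 and 9.84 with MNNG, against 9.64 and 9.51 untreated (0.28 ± 0.08, adjusted p = 0.00339). In each of the 3 the arrays of the conditions lay apart. TM7SF2 did not pass without replicate 1 (0.72), nor ACAT2 without replicate 2 (0.24). HSD17B7 has a near-identical pseudogene, and which transcript its probe set reads was not examined. The rises of ACAT2 and HSD17B7 did not pass when arrays were centred on their medians, which left 1 member called up, against 14.9% of all genes.

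**Figure D3:**
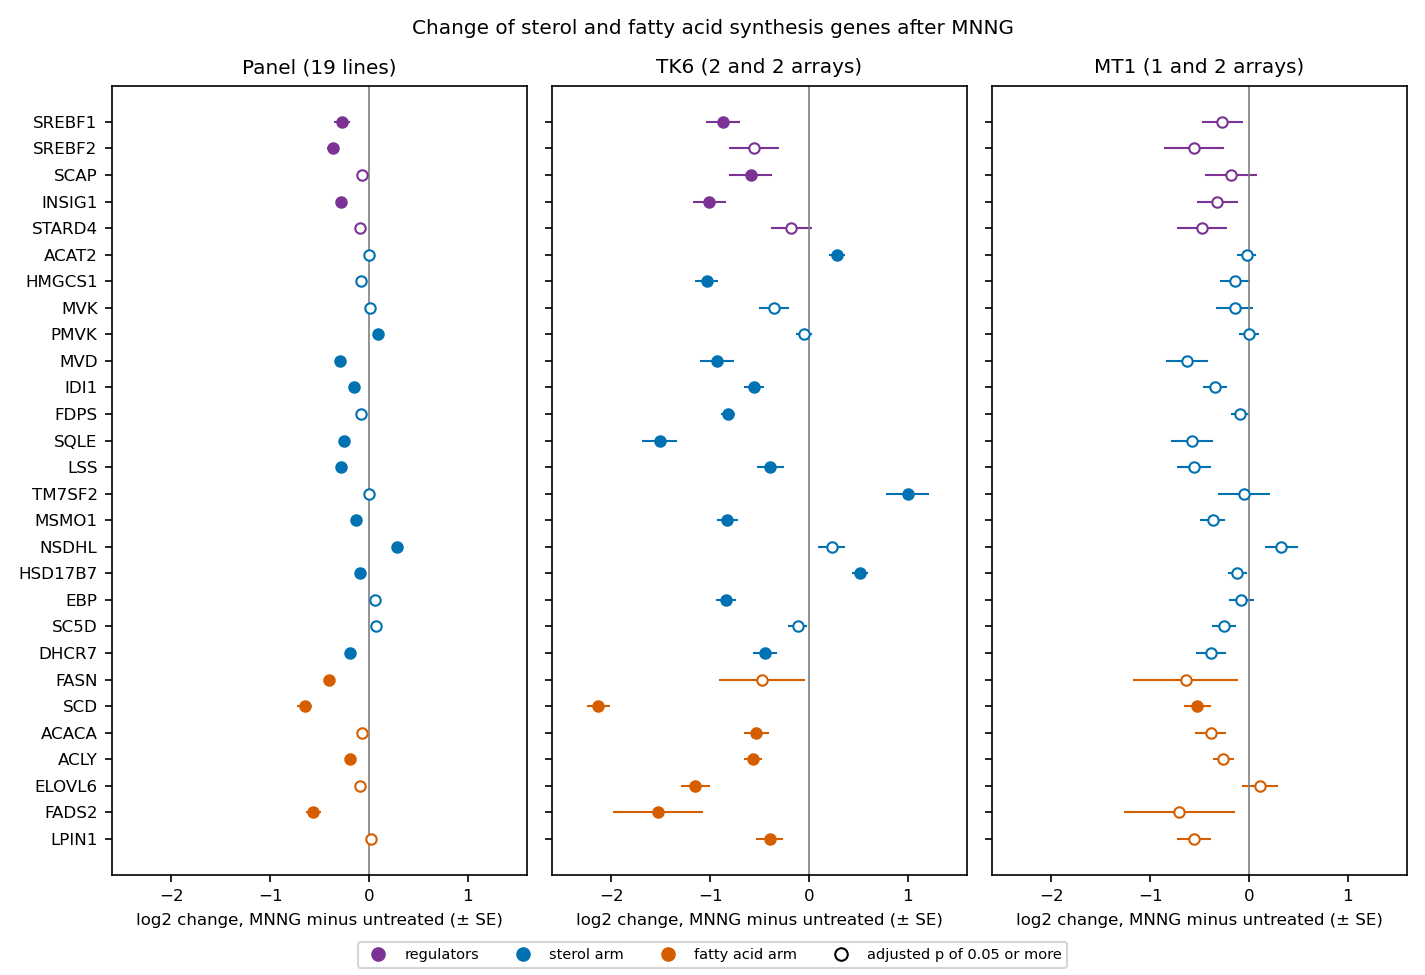
Log2 change (MNNG minus untreated, horizontal axis, bars ± SE) of the 28 members in the panel (19 lines), TK6 and MT1, in pathway order from regulators to the fatty acid arm. Filled points have an adjusted p below 0.05. In TK6 SCD is farthest to the left at -2.13 and TM7SF2 farthest to the right at 1.00, while in MT1 SCD alone is filled.

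MT1 kept 1 MNNG array, so its changes have no replicate on the treated side and borrow their spread from the other groups. They are those of the brightest probe set of each gene, and several dimmer probe sets, given below, fell by more. Of the 28 members, 1 fell and 0 rose, against 1.21% and 2.36% of all genes. At an unadjusted p below 0.05, limma gave 11 members lower and 0 higher, against 5.18% and 10.1% of all genes. SCD had 11.6 in the MNNG array, against 12.0 and 12.3 in the untreated arrays (-0.52 ± 0.14, adjusted p = 0.0246), a call that ended when arrays were centred on their medians, when TK6 and MT1 arrays were fitted alone and when no array was left out. The MNNG array lay below both untreated arrays for 23 members, against 30.2% of all genes, and above both for 2 (NSDHL and ELOVL6), against 39.9%. Its change was below that of all 19 panel lines for 4 members (STARD4, SC5D, ACACA and LPIN1), against 5.45% of all genes, and above all of them for 0, against 5.29%. The median change was -0.32 over the regulators, -0.14 over the sterol arm and -0.52 over the fatty acid arm, against 0.03 over all genes. The beta-actin difference was 0.571 in the MNNG array and 0.294 in the median of the untreated arrays, and its part was not tested.

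The difference in response, TK6 minus MT1, passed for 9 members: 7 were lower in TK6, against 12.5% of all genes, and 2 higher, against 12.2%. SCD changed by -2.13 in TK6 and by -0.52 in MT1, a difference of -1.61 ± 0.18 (adjusted p = 2.21e-09). ELOVL6 changed by -1.15 in TK6 and 0.11 in MT1 (difference -1.26 ± 0.24, adjusted p = 6.08e-05). In the sterol arm, SQLE (-0.94 ± 0.27), HMGCS1 (-0.89 ± 0.19), EBP (-0.76 ± 0.16), FDPS (-0.73 ± 0.12) and MSMO1 (-0.46 ± 0.16) were lower in TK6. The dimmer probe set of HMGCS1 changed by -2.11 ± 0.54 in TK6 and by -1.80 ± 0.66 in MT1. With the dimmest probe set of each gene the calls of SCD, HMGCS1, EBP and MSMO1 were lost. That of HMGCS1 was also lost with the mean of all probe sets. TM7SF2 changed by 1.00 in TK6 and -0.05 in MT1 (difference 1.05 ± 0.34, adjusted p = 0.0199), and HSD17B7 changed by 0.52 in TK6 and -0.12 in MT1 (difference 0.63 ± 0.13, adjusted p = 0.00016). For the regulators the differences did not pass, from -0.69 ± 0.27 for INSIG1 (adjusted p = 0.0556) to 0.30 ± 0.33 for STARD4. With arrays centred on their medians, 2 members were called lower in TK6 and 1 higher, against 3.83% and 8.31% of all genes. The median difference over the 28 members, relative to that over all genes, was -0.17 here and -0.033 with median centring, where 14 of the 28 lay above the median of all genes. Without replicate 1, SQLE (-0.97), MSMO1 (-0.30) and TM7SF2 (0.96) did not pass.

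Before treatment MT1 held more of these transcripts than TK6. Of the 28 members, 17 were higher in untreated MT1, against 13.6% of all genes, and 2 lower, against 11.7%. The median difference was 0.68 over the sterol arm, 0.56 over the fatty acid arm and 0.28 over the regulators, against 0.01 over all genes. These differences, the TK6 change and the TK6 minus MT1 difference use the same untreated TK6 arrays, and the values are given side by side only. HMGCS1 had 11.4 and 11.2 in untreated MT1, against 9.91 and 9.9 in untreated TK6 (1.38 ± 0.12, 2.60-fold, adjusted p = 2.4e-12). DHCR7 had 9.83 and 9.73 in MT1, against 8.69 and 8.25 in TK6 (1.31 ± 0.12, adjusted p = 1.51e-11). The lines did not overlap in either gene, although the untreated TK6 duplicates of DHCR7 stood apart. IDI1 (1.23 ± 0.10), SC5D, a desaturase of the sterol ring (1.14 ± 0.10), ACAT2 (0.96 ± 0.08), MSMO1 (0.83 ± 0.10) and EBP (0.83 ± 0.10) were higher in MT1 too. FASN was higher with a wide error (1.24 ± 0.43), since its duplicates differed: 8.32 and 9.2 in MT1, against 7.06 and 7.98 in TK6. SCD, with 12.0 and 12.3 in MT1 and 11.9 and 12.1 in TK6, did not pass (0.14 ± 0.11). HSD17B7 (-0.26 ± 0.08) and PMVK (-0.32 ± 0.08) were lower in MT1, calls that were lost with median centring and with the values as deposited. With 1 replicate number left out, 11 to 14 members were higher, against 7.63% to 8.54% of all genes, and 0 to 1 lower, against 7.88% to 8.13%.

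Set against the 24 untreated panel lines, MT1 stood above all of them for 18 members, against 17.8% of all genes, and TK6 for 4 (STARD4, PMVK, SCD and ELOVL6), against 16.4%. HSD17B7 in MT1 lay below all 24 lines, against 16.4% of all genes at that end. SCD in the panel ran from 10.0 through a median of 10.6 to 11.5, below its levels in both MT1 and TK6. HMGCS1 ran from 9.02 through 9.48 to 10.3 in the panel, which takes in TK6 and not MT1. Before treatment the 24 lines differed among themselves by limma's F test for 26 of the 28 members, against 68.1% of all genes, and FASN and FADS2 did not pass. Duplicate arrays of a line differed with an SD of 0.51 for FASN and 0.55 for FADS2, against 0.08 for ACLY and 0.11 for SCD. The highest and lowest line were 4.89-fold apart for LPIN1, 3.56-fold for ELOVL6 and 1.55-fold for NSDHL.

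**Figure D4:**
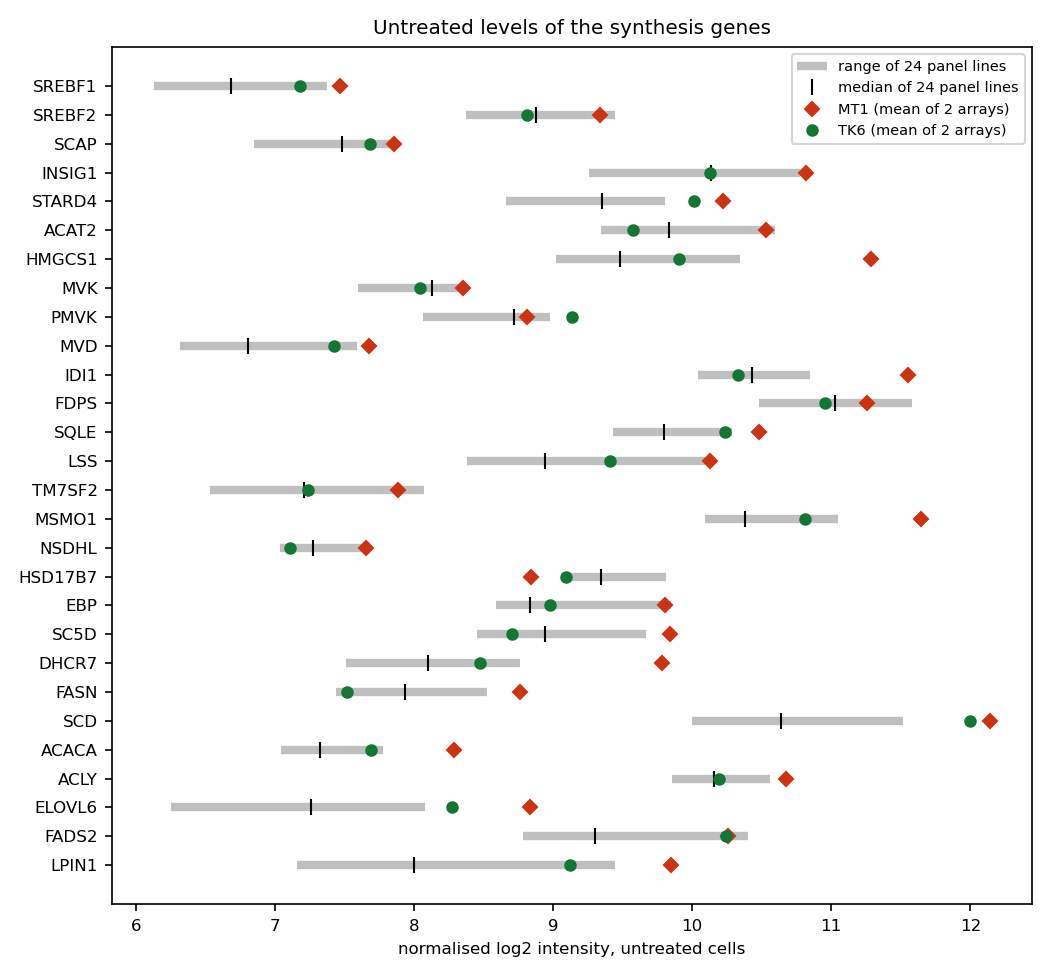
Normalised log2 intensity in untreated cells (horizontal axis) of the 28 members: MT1 and TK6 (means of 2 arrays), with the range and median of the 24 panel lines. MT1 lies beyond the top of the panel range for 18 members and TK6 for 4.

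Among the untreated panel lines, line 21 held the most members at their highest level. It had the highest level of the 24 lines for 15 of the 28 members (ACAT2, ACLY, DHCR7, EBP, FADS2, FASN, FDPS, HMGCS1, IDI1, LSS, MSMO1, MVD, SC5D, SCD and SQLE), against 2.57% of all genes, a count chosen after the values were seen. Levels moved together across the 24 lines. The median correlation between pairs was 0.49 within the sterol arm (120 pairs), 0.43 within the fatty acid arm (21 pairs) and 0.38 between the arms (112 pairs), against 0.0024 for all pairs of genes tested. These are descriptions over lines, whose points share arrays and normalisation. HMGCS1 and MSMO1 correlated at 0.91, FDPS and DHCR7 at 0.88 and HMGCS1 and SCD at 0.86. NSDHL, SCAP, PMVK and LPIN1 stood outside this pattern, with median correlations to the sterol arm of -0.14, -0.074, -0.0021 and 0.04. TM7SF2 had 0.13 with the sterol arm and -0.23 with the fatty acid arm. The changes after MNNG also moved together over the 19 lines, with medians of 0.37 within the sterol arm, 0.30 within the fatty acid arm and 0.29 between them, against 0.0056 for all pairs. IDI1 and DHCR7 changed most alike (0.92), while LPIN1 had a median of -0.48 with the fatty acid arm. FASN and FADS2 correlated at 0.86 in untreated levels and 0.90 in changes, and they are also the members whose duplicate arrays differed most.

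Probe sets of 1 gene gave different sizes of change. All 63 probe sets of the members were tested. In the panel 33 fell and 6 rose, against 19.2% and 22.7% of 28768 probe sets, and in TK6 43 fell and 3 rose, against 18.3% and 17.9%. For SCD the brightest probe set changed by -0.65 in the panel and the other 3 by -0.96, -1.24 and -1.40. In TK6 the same 4 changed by -2.13, -3.02, -2.90 and -3.21. HMGCS1, which did not pass in the panel with its brighter probe set (-0.08), fell by 0.94 with the other. The dimmer probe sets of ACLY (-0.81 and -0.49), INSIG1 (-0.54 and -0.64) and 1 each of LSS (-0.79) and SREBF2 (-0.74) fell by more than the brightest. Those of FADS2 (-0.02), FASN (0.02) and SREBF1 (-0.05), the dimmest of LSS (0.025) and the dimmest 2 of IDI1 (-0.052 and -0.033) did not pass, although the brightest of each fell. Their mean levels were 6.17, 5.58, 6.60, 5.61, 6.40 and 6.23 in that order. The lowest value of the scale is 5, and changes near it are understated. The brightest of SREBF1 was itself at 6.64, and the LSS probe set that fell by more was at 6.47. Of the 19 members with over 1 probe set, the dimmest was below the brightest in the panel change for 9, with a median difference of 0.049, against 62.1% of 7275 genes, with a median difference of -0.047. EBP and LPIN1 had probe sets called in both directions in the panel, at 0.56 and -0.12 for EBP and 0.20 and -0.24 for LPIN1. A second probe set of NSDHL rose too (0.12 ± 0.04), while TM7SF2, HSD17B7 and ACAT2 have 1 probe set each. In MT1, with 1 MNNG array, dimmer probe sets also changed unlike the brightest. Those of ACLY changed by -1.40 and -0.91 against -0.26, and those of SCD by -1.52, -2.05 and -1.86 against -0.52. For LSS 1 changed by -1.26 against -0.56. Those of INSIG1 changed by -0.79 and -1.01 against -0.32, and that of DHCR7 by -0.84 against -0.39. Those of SQLE lay on both sides of its brightest, at -0.97, -0.49 and -0.33 against -0.57. So did those of LPIN1, at -0.94 and -0.18 against -0.56. The other way went, among others, 1 of EBP, at 0.60 against -0.08, and 1 of ELOVL6, at 0.50 against 0.11. So did that of FADS2, at -0.28 against -0.71, and that of FASN, at -0.0011 against -0.64.

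**Figure D5:**
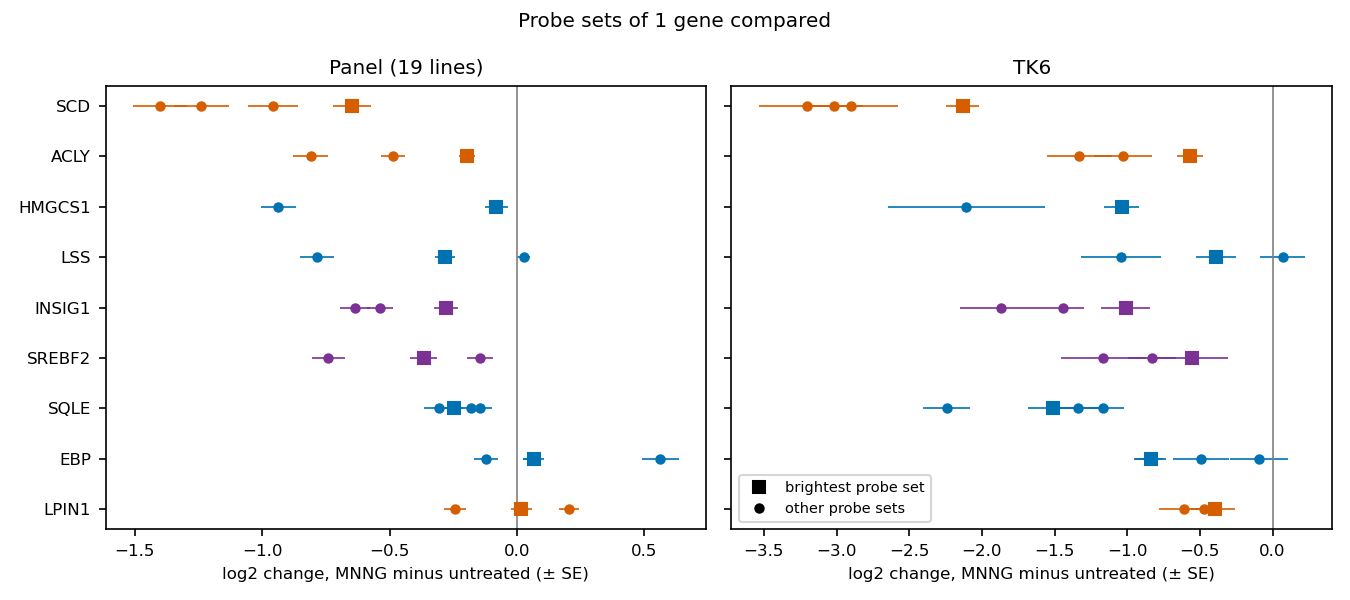
Log2 change (MNNG minus untreated, horizontal axis, bars ± SE) of each probe set of 9 members in the panel and in TK6. Squares mark the brightest probe set, which stood for the gene. In the panel the 4 probe sets of SCD spread from -0.65 to -1.40, and LSS, EBP and LPIN1 have probe sets on both sides of 0. In TK6 those of EBP and LPIN1 all lie below 0.

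The other genes of sterol and fatty acid metabolism were followed in lists chosen with earlier results known. Over all genes 28.7% rose and 13.8% fell in the panel, and 21.6% rose and 19.5% fell in TK6, and the counts of these short lists are set beside those shares. Of 6 further regulators tested, 1 rose and 2 fell in the panel, and 0 rose and 4 fell in TK6. INSIG2, the second retention protein of SCAP, fell by 0.33 ± 0.05 in the panel and by 1.92 ± 0.15 in TK6, and differed by -2.04 ± 0.15 between untreated MT1 and untreated TK6 (MT1 minus TK6). Of 10 genes of cholesterol handling, 5 fell in the panel, with TMEM97 at -0.21 ± 0.03, ABCG1, an exporter, at -0.20 ± 0.05 and the sterol-binding protein OSBP at -0.18 ± 0.03. In TK6 4 fell and 2 rose: VLDLR, a lipoprotein receptor, fell by 0.90 ± 0.13, while NCEH1, a cholesteryl ester hydrolase, rose by 1.61 ± 0.20. Of 9 genes that use prenyl pyrophosphates for protein, dolichol or ubiquinone synthesis, 5 rose and 2 fell in the panel. The largest was PGGT1B, a subunit of a prenyltransferase (0.58 ± 0.07). In TK6 2 rose and 4 fell, among them GGPS1, which makes geranylgeranyl pyrophosphate (-0.77 ± 0.13). Of 14 other fatty acid genes, 4 fell and 0 rose in the panel, led by the citrate carrier SLC25A1 (-0.33 ± 0.05), while in TK6 6 fell and 4 rose, with SLC25A1 at -1.29 ± 0.35 and the acyl-CoA ligase ACSL1 at 1.45 ± 0.19.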

How the data were processed

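The deposited values are linear intensities made with PLIER per the submitters' processing notes; its version is not given in the sources used here. They have a floor of 16 and reach 65535. The members and gene lists were chosen with earlier results of these data known. Here values were taken to log2(value + 16), and quantile normalised because array medians differed by 1.33 log2 units. Levels and changes are on that scale, whose lowest value is 5, so changes of dim genes are understated. Probe sets with 1 symbol in the platform annotation (41097 of 54675) were used, and 1801 with several and 11777 with none were left out. The brightest probe set stood for a gene, and the 30% dimmest genes were left out. Tests used limma 3.58.1 in R 4.3.3 with the data.table package (1.17.8), and adjusted p-values are from limma with Benjamini-Hochberg adjustment over 13842 genes. The panel was fitted on averages of duplicates with the line as a block. TK6, MT1, their differences and the F tests came from 1 model with a mean for each line and condition. All members could be named, and of the other lists up to 4 called genes of largest change in each comparison. The analysis was tested on simulated data. Alternatives were pseudocounts, normalisation, filters, probe set rules, all arrays of the series, blocks, left-out replicates and lines and, chosen after seeing the data, a beta-actin covariate and the dimmest probe set of a gene. Figures used Python 3.11.15, pandas 2.3.3 and matplotlib 3.10.9. Promoters were from RefSeq on GRCh38.p14. The number of arrays limits the precision.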

Additional observations from a re-analysis of the deposited data

Results flagged for a closer look

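The response to MNNG differed between TK6 and MT1, by a test of the difference itself, in 9 members. On the log2 scale, TK6 minus MT1, the differences were -1.61 for SCD, -1.26 for ELOVL6, -0.94 for SQLE, -0.89 for HMGCS1, -0.76 for EBP, -0.73 for FDPS, -0.46 for MSMO1, 0.63 for HSD17B7 and 1.05 for TM7SF2. MT1 had 1 MNNG array, and 24.7% of all genes passed the same test in either direction. The response also differed between panel lines by limma's F test in 4 members, with adjusted p = 1.77e-06 for SCD, adjusted p = 0.000596 for ACAT2, adjusted p = 0.0018 for FDPS and adjusted p = 0.00516 for SREBF1. The TK6 minus MT1 calls of SCD, HMGCS1, EBP and MSMO1 were lost with the dimmest probe set of each gene. What sets the differences between lines was not tested.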

How the results depend on the processing

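Scaling moved the centre of all genes tested: with values as deposited their median reached 0.13 for panel lines and 0.31 for MT1, and with arrays centred on their medians -0.021 and -0.13, against 0.037 and 0.033 as reported. Measured from that centre, the members' median was -0.21 for panel lines, -0.63 for TK6 and -0.55 for MT1 under either scaling, against -0.12, -0.53 and -0.33 as reported. These 2 scalings differ by a constant for each array, so this distance is the same under both by construction. Pseudocounts of 1 and 64, no filter, a 50% filter and no trend kept the calls of all members called. With the pseudocount of 64 and the 50% filter more members passed as lower in MT1. With no array left out the panel had 5 members up, against 35.8% of all genes. TK6 had 0 up and 2 down, against 2.36% and 0.983%, and MT1 0 down, against 0.065%. TK6 minus MT1 had 0 either way, against 0.686% up and 0.238% down. Untreated MT1 minus TK6 had 1 up and 0 down, against 0.217% and 1.00%. The F tests gave 1 (response) and 0 (untreated, against 10.2%) in this setting. There the sterol minus fatty acid difference was -0.043 in the panel and 1.29 in MT1. Signs turned in the panel for SREBF1 (0.027), IDI1 (0.15), SQLE (0.11) and NSDHL (-0.31), and in TK6 minus MT1 for HMGCS1 (1.01), MSMO1 (1.22), EBP (1.35) and ELOVL6 (0.29). With values as deposited the panel had 1 up, against 29.6% of all genes, and TK6 11 down, against 10.3%. Untreated MT1 minus TK6 had 11 up and 0 down, against 5.43% and 6.07%, and the response F test gave 2, against 0.571%. The TK6 minus MT1 calls of TM7SF2, MSMO1, HSD17B7 and EBP were lost there. Centring on medians gave 1 up in the panel (PMVK turned to -0.048), against 6.85% of all genes, and 1 up in TK6, against 14.9%. Untreated MT1 minus TK6 had 0 down, against 8.18%, and the response F test gave 1. The TK6 minus MT1 calls of HMGCS1, FDPS, SQLE, MSMO1, HSD17B7 and EBP were lost, as was that of SCD in MT1. With the mean of all probe sets more members passed as lower in MT1, and the sterol minus fatty acid difference in TK6 was 0.45. With the dimmest probe set that difference turned to -0.016 in the panel and was 0.20 in MT1. Several of these probe sets lie near the lowest value of the scale, 5. The TK6 minus MT1 calls of HMGCS1, MSMO1, EBP and SCD were lost there. Untreated MT1 minus TK6 had 9 up, against 9.75% of all genes, and the response F test gave 2. LSS turned to 0.025 in the panel and 0.068 in TK6, FASN to 0.022 in the panel, and IDI1 to -0.33 in untreated MT1 minus TK6. With the beta-actin covariate the panel had 1 up and 0 down, against 1.94% and 0.831% of all genes, and SREBF1 (0.069) and IDI1 (0.010) turned. Without the line block the panel had 1 up and 7 down, against 10.3% and 4.89%. The lines with both MNNG arrays gave 1 up, against 11.7%. With TK6 and MT1 arrays alone, untreated MT1 minus TK6 had 0 down, against 8.02%. The call of SCD in MT1 and the TK6 minus MT1 calls of TM7SF2, MSMO1 and HSD17B7 were lost there.

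Leaving out 1 replicate number gave 0 to 3 up and 6 to 14 down in the panel, against 6.18% to 21.7% and 2.41% to 11.0% of all genes. The lower counts and shares are those without replicate 1. In TK6 and MT1 it leaves 1 array in a group, and the difference between the arms was 0.038 to 0.57 in TK6 and 0.19 in MT1. The TK6 minus MT1 changes without replicate 1, and the counts for untreated MT1 against TK6, are given in the Results. Leaving out 1 panel line gave 2 to 3 up and 14 to 16 down, against 26.9% to 30.6% and 12.9% to 14.6% of all genes. The F tests could not be fitted with 1 replicate left out. Within a line, the difference between arrays numbered 1 and 2 was not shared by the 2 conditions (9 pairs, correlations of -0.62 to 0.14, with 2 above 0.1). The numbers were therefore not taken as pairs. Whether arrays of 1 number share an offset across lines was not tested. For FASN the untreated arrays numbered 1 and 2 had 7.06 and 7.98 in TK6 and 8.32 and 9.20 in MT1. For FADS2 they had 9.79 and 10.7 in TK6 and 9.88 and 10.6 in MT1. With a replicate block, members down in MT1 numbered 4, the panel had 2 up and 16 down and lost the call of HSD17B7 alone, and TK6, TK6 minus MT1 and untreated MT1 minus TK6 lost none. In the panel the block moved FASN to -0.24 and FADS2 to -0.36. Over all settings 2.77% to 68.1% of all genes were called in the panel, 3.34% to 52.6% in TK6, 0% to 5.67% in MT1, 0.925% to 33.2% in TK6 minus MT1 and 1.22% to 33.1% in untreated MT1 minus TK6. The causes of these changes were not tested.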
